A study of Gallus gallus with 51 samples.

Results

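The comparison described here is neomycin-lesioned against undamaged sensory epithelium (SE) of the chick cochlea after 48 hr of recovery. All arrays labelled as this comparison at the 48 hr time point were used, which gave 18 of the 51 arrays and 3 of the 9 biological replicates of the time course. Replicate 1 was hybridized to 8 arrays, replicate 2 to 6 and replicate 3 to 4. In each replicate the arrays were divided equally between those with the neomycin RNA in Cy3 and those with it in Cy5.

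The organs came from young White Leghorn chicks and were kept in culture. The treated cochleae spent 24 hr in medium with 1 mM neomycin and then 48 hr in medium without it, while the control cochleae went through the same culture steps with no neomycin. SE was freed with thermolysin, 4 epithelia were pooled for each RNA of a biological replicate, and the RNA was amplified before labelling. Each RNA pair was hybridized to spotted arrays of human oligonucleotide probes for transcription factor (TF) genes, used across species, so that a probe reports a chick transcript only as far as the sequences pair.

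Neomycin is an aminoglycoside that is taken up by hair cells and kills them. In birds the supporting cells that surround the lost hair cells can re-enter the cell cycle or convert directly, and new hair cells are formed. TFs such as ATOH1, which starts hair cell fate, and POU4F3, which hair cells need to mature and survive, mark the sensory lineage, while SOX2, PROX1 and GATA3 are found in supporting cells or the wider otic epithelium.

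Values are log2 ratios of neomycin over control, so a value above 0 means more signal from the neomycin RNA. Of 1509 gene probes, the dimmest 227 were left out and 1282 were tested. No probe passed a Benjamini-Hochberg adjusted p of 0.05 in the limma fit, where the smallest adjusted p was 0.784. At an unadjusted p under 0.05 there were 58 probes, which is 4.52% of those tested, with 24 higher (1.87%) and 34 lower (2.65%) in neomycin. None of the genes described below was therefore called changed, and their values are given as measurements. The value after ± is the standard error (SE) of the limma fit, whose variance came from all 9 replicates of the time course. It is not the spread of a gene's own replicate values, which can be wider or narrower. The SD of those values was 0.80 in POU4F3, with an SE of 0.25, and 0.045 in TRIM22, with an SE of 0.13. The count of 58 fell to 7 when replicate 1 was left out and reached 109 when replicate 2 was left out. The balance of higher and lower probes also moved with the scaling. It was 23 higher and 50 lower with median centring, 10 and 27 with scaling between arrays, and 45 higher among 151 in the deposited ratios.

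The 3 replicates did not have the same spread. For replicates 1, 2 and 3 the SD of the log2 ratio over tested probes came to 0.57, 0.24 and 0.20. The 19 negative control probes, which per the study's methods have no homolog in chicken, gave SDs of 0.57, 0.12 and 0.14. Replicate 1 therefore moved its control probes as widely as its gene probes, with control values from -0.70 to 1.23. Across tested probes, Pearson's r was -0.14 between replicates 1 and 2, 0.17 between replicates 1 and 3, and 0.10 between replicates 2 and 3. The same sign in all 3 replicates was seen for 391 probes, or 30.5% of those tested (185 higher and 206 lower), and for 5 of the 19 negative controls. With median centring the 1-sign probes were 149 higher and 262 lower.

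A single array stood apart in replicate 2, the first of those with neomycin in Cy5, with an SD of log2 ratios of 0.775 against 0.31 to 0.39 on the 5 others. Without it the replicate 2 value moved by over 1.5 times in 7 of the 12 higher and 4 of the 12 lower genes chosen below by rule, the mean of the 3 replicates moved by that much in 0 of the 24, and no sign turned among them. Values without this array are given for many, but not all, of the genes whose replicate 2 value moved.

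Agreement was closer between arrays of 1 RNA pair in the same dye orientation. The median r was 0.61 over 20 pairs of arrays of the same replicate and dye orientation, 0.18 over 29 pairs with opposite orientation and -0.0025 over pairs from different replicates. Between the 2 dye orientations r came to 0.47, 0.0072 and 0.074 for replicates 1, 2 and 3. The difference between orientations, which measures the dye bias of a probe, gave no call in limma, while 59 probes (4.6%) had an unadjusted p below 0.05. The days on which the images were quantified, from the file headers, were not shared between replicates, so day and biological replicate cannot be told apart.

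Few probes were well above the negative controls. Each of the 18 arrays gave a reading for both RNAs, hence 36 readings per probe, and detection meant exceeding 95% of the negative controls in that dye on that array. Only 58 probes were detected in at least 80% of the readings at 48 hr, and 116 of the tested probes were detected in none. Among those 58 bright probes the median log2 ratio was -0.044. Of them 2, ETV1 and LMO1, had an unadjusted p under 0.05, beside 4.52% of all tested probes.

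Here and below, the sign in a dye orientation is that of its mean over the 3 replicates. Within a replicate the 2 orientations of a chosen gene could therefore differ in sign. Of the probes lower in neomycin in every replicate and in both dye orientations, the 12 with the smallest p led with ETV1. This ETS factor of the PEA3 group acts downstream of FGF signalling. ETV1 stood at -1.78, -0.88 and -0.52 in replicates 1, 2 and 3. Its mean was -1.06 ± 0.23 (n = 3, SE of the limma fit over all 9 replicates), which is 2.09-fold lower (limma unadjusted p = 0.000836, adjusted p = 0.784). All 3 replicates were below 0, with replicate 1 the lowest. By array, ETV1 was lower on 7 of 8 arrays in replicate 1, on 6 of 6 in replicate 2 and on 2 of 4 in replicate 3, where the arrays with neomycin in Cy3 averaged -1.34 and those with it in Cy5 averaged 0.30. The other tested ETV probes were ETV3 at 0.13, ETV5 at 0.028, ETV6 at 0.037 and the second ETV4 probe at -0.10, none with an unadjusted p under 0.05 (limma, n = 3; named after their values were seen).

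SIX2, a homeodomain partner of the EYA proteins, was -1.20, -0.34 and -0.47 in the 3 replicates, with a mean of -0.67 ± 0.18 (SE, 1.59-fold lower, limma unadjusted p = 0.00332). It was lower on 17 of 18 arrays. Its probe was detected in 4 of 18 neomycin readings and in 5 of 18 control readings. For SIX3 and SIX4 the means were -0.50 and -0.56 with unadjusted limma p of 0.0567 and 0.118. Replicate 1 was the lowest in both, with SIX3 at -1.34, -0.033 and -0.14 and SIX4 at -1.40, 0.19 and -0.48 in replicates 1 to 3. The 8 tested probes of the SIX2 family and its EYA and DACH partners had a median of -0.23, against -0.017 for all tested probes, and medians of -0.51, -0.081 and -0.14 in replicates 1 to 3. Of the 8, 2 were lower and 0 higher at an unadjusted p under 0.05, beside 2.65% and 1.87% of all tested probes. In every replicate 4 of the 8 were lower and 0 higher, beside 16.1% and 14.4% of all tested probes, and without replicate 1 the median was -0.084.

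GTF2F1, the large subunit of the general factor TFIIF, was at -1.60, -1.06 and -0.026 (mean -0.90 ± 0.25, 1.86-fold lower, limma unadjusted p = 0.00463). Replicates 1 and 2 were clearly low, on all 14 of their arrays, while in replicate 3 it lay close to 0 with 2 arrays above and 2 below. In the whole basal transcription list, GTF2F1 included, 3 of 68 tested probes were higher and 3 lower at an unadjusted p under 0.05. The shares of all tested probes were 1.87% and 2.65%, and the median of the list was -0.031. ELL2, a subunit of elongation complexes of RNA polymerase II, read 0.82, 0.37 and 0.60 in the 3 replicates (mean 0.60 ± 0.17, limma unadjusted p = 0.00608), the smallest p among the higher probes. It was higher on 17 of 18 arrays, yet its probe was detected in 2 of the 36 readings, both of neomycin RNA. GTF2I, a regulator that binds initiator elements, had a mean of -0.56 ± 0.21 and GTF2A1, a TFIIA subunit, a mean of 0.41 ± 0.17 (limma unadjusted p = 0.0213 and 0.0396).

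POU4F3 was the hair cell marker with the lowest ratio. It stood at -1.60, -0.76 and -0.010 in replicates 1, 2 and 3, with a mean of -0.79 ± 0.25 (1.73-fold lower, limma unadjusted p = 0.00884, adjusted p = 0.784). All 8 arrays of replicate 1 were below 0, from -2.66 to -0.35, and all 6 of replicate 2, from -0.99 to -0.27, whereas the 4 arrays of replicate 3 ran from -0.12 to 0.10. The signal was thus lower in replicates 1 and 2 and level with the control in replicate 3. In a tissue sample of this kind, fewer hair cells and less POU4F3 RNA per hair cell cannot be told apart. The probe was detected in 10 of 18 neomycin readings and in 10 of 18 control readings.

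The other hair cell factors had means nearer 0, with single arrays from -0.78 to 1.22 for ATOH1 and from -1.55 to 0.60 for BARHL1. ATOH1 had values of 0.32, -0.15 and -0.16 (mean 0.0034 ± 0.15, limma unadjusted p = 0.982), a sign that turned under several other settings. GFI1, a zinc finger repressor needed for hair cell survival, gave -0.035, -0.12 and -0.19 (mean -0.11 ± 0.12), and it was above 0 with median centring. BARHL1, a homeobox gene of hair cells, gave -0.15, -0.17 and -0.23 (mean -0.18 ± 0.12, limma unadjusted p = 0.174), but was above 0 in the deposited ratios, and it was detected in 2 of 18 control readings and in no neomycin reading. Without the array that stood apart, replicate 2 was -0.053 in ATOH1, -0.20 in GFI1 and -0.070 in BARHL1. Over all 4 tested hair cell markers the median was -0.15, and 3 were below 0 in all 3 replicates, beside 16.1% of all tested probes. This count goes by sign alone. It includes POU4F3, which was only -0.010 in replicate 3, and GFI1 and BARHL1, whose means each turned above 0 in another setting.

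**Figure D1:**
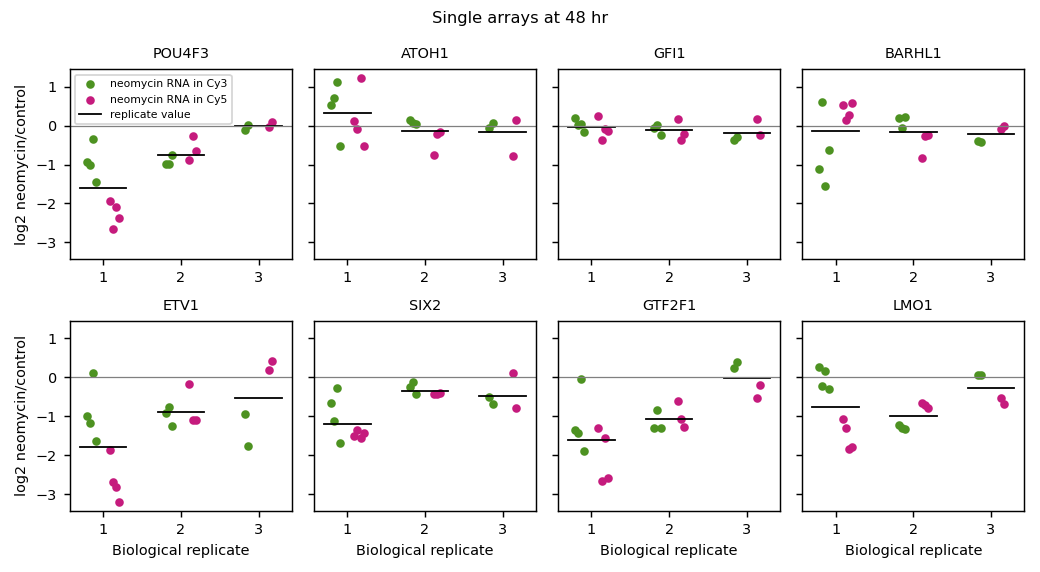
Log2 neomycin/control ratio at 48 hr on each array (points, coloured by the dye that carried the neomycin RNA) by biological replicate for 8 genes. Black bars are the replicate values, the mean of the 2 dye means. POU4F3 lies below 0 on every array of replicates 1 and 2 and between -0.12 and 0.10 in replicate 3, while ATOH1, GFI1 and BARHL1 scatter around 0.

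Supporting cell and otic markers had a median of -0.11 over 10 tested probes. At an unadjusted p under 0.05, 1 was lower and 0 higher, beside 2.65% and 1.87% of all tested probes. PROX1 was -0.83, 0.0035 and -0.066 (mean -0.30 ± 0.18), and HEYL, a Notch target, was -0.61, -0.13 and -0.15 (mean -0.30 ± 0.22). Without the array that stood apart, replicate 2 was 0.039 in PROX1 and -0.042 in HEYL. SOX2 had a mean of 0.11 ± 0.30 and GATA3 one of -0.082 ± 0.16, and the sign of each depended on the dye orientation used. Of 17 probes of this list, 5 were detected in no reading, so that PAX2 and EYA1 among others could not be judged.

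Markers of cells outside the epithelium gave no list in which most probes were higher, or most lower, in every replicate. Within replicate 2 some lists leaned 1 way. There 7 of 7 neuron and neuroblast probes were above 0, but only 2 of 14 mesenchyme and 2 of 11 blood and immune probes, beside 652 of all 1282 tested probes. Over 14 mesenchyme and stroma probes the median was -0.0031 and none had an unadjusted p under 0.05. The list had 7 means above 0 and 7 below, from -0.30 to 0.48, and medians of 0.12, -0.091 and 0.010 in replicates 1 to 3. The 2 genes named next are among those above 0. FOXC1, the forkhead gene of mesenchyme, had a mean of 0.28 ± 0.18, and PAX1 was 0.53, -0.22 and 1.12 but was detected in no reading. For blood and immune cells the median over 11 probes was -0.025. Of these 11 means 5 were above 0 and 6 below, from -0.39 to 0.29, and both genes named next are among those below. CORO1A, an actin regulator of leukocytes, was -0.73, -0.032 and -0.41 (mean -0.39 ± 0.17, limma unadjusted p = 0.0415), and SPI1, which drives myeloid and B cell fate, had a mean of -0.33 ± 0.16. Without the array that stood apart, replicate 2 of CORO1A turned to 0.20 and that of SPI1 from -0.090 to 0.039. Among 7 neuron and neuroblast probes the median was 0.070, and it was -0.57, 0.090 and -0.070 in replicates 1 to 3. Of the 7 means 4 were above 0 and 3 below, and 2 probes were higher and 0 lower in every replicate, beside 14.4% and 16.1% of all tested probes. NEUROG1, the neuroblast determinant of the otic ganglion, had the lowest mean of the list, from values of -1.25, 0.020 and -0.34. The 2 glia and 5 muscle probes had medians of -0.017 and -0.10 with none at an unadjusted p under 0.05. None of these lists held a probe detected in 80% of readings except POU4F1 of the neuron list. The part of such cells in the results was not tested.

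The remaining genes lower in every replicate and both dye orientations had means between -0.32 and -0.68. FARSL, a chain of phenylalanyl-tRNA synthetase, had values of -0.80, -0.65 and -0.51 (mean -0.65 ± 0.21, limma unadjusted p = 0.00945) and was the only 1 of the 24 genes named by the rule to lie on the same side of 0 on all 18 arrays. Its replicates were close to each other, in contrast to those of GTF2F1 and POU4F3. NPAS2, a partner of BMAL1 in the circadian clock, was at -0.53, -0.36 and -0.43 (mean -0.44 ± 0.15), with replicate 2 at -0.18 without the array that stood apart. HMGIC, the architectural chromatin protein now called HMGA2, was at -0.35, -0.22 and -0.38 (mean -0.32 ± 0.12), with replicate 2 at -0.14 without that array.

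LMO1, a LIM-only cofactor and 1 of the brightest of this group, read -0.76, -1.003 and -0.27 (mean -0.68 ± 0.25). In replicates 1 and 3 its value came from the arrays with neomycin in Cy5, with means of -1.50 and -0.60, while those with neomycin in Cy3 averaged -0.026 and 0.061. SREBF2, the regulator of cholesterol synthesis genes, had values of -0.86, -0.57 and -0.096. In FKHL18, a forkhead gene, PRDM12, a PR domain factor of sensory neurons, and MYH9, non-muscle myosin heavy chain, replicate 1 was again the lowest, at -0.73, -0.74 and -0.81. Without the array that stood apart, replicate 2 of MYH9 went from -0.16 to -0.0035 and that of PRDM12 from -0.13 to -0.060. Replicate 1 had the largest size in 10 of these 12 lower genes, beside 71.5% of all tested probes.

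Of the genes higher in every replicate and both dye orientations, 10 of 12 also had their largest value in replicate 1, beside the same 71.5%. BCL11A, a zinc finger repressor, was the most often detected of them, in 63.9% of readings, and had values of 0.53, 0.42 and 0.26 (mean 0.41 ± 0.16, 1.32-fold higher, limma unadjusted p = 0.0314). It was higher on 13 of 18 arrays. TRIM22, an interferon-induced RING protein in mammals, had the closest replicates, at 0.36, 0.29 and 0.28 (mean 0.31 ± 0.13). EIF4A1, the RNA helicase of translation initiation, was 0.84, 0.52 and 0.21 (mean 0.52 ± 0.19). In EIF4A1 the array of replicate 2 that stood apart read 1.96, and replicate 2 was 0.21 without it. BLZF1, a Golgi protein with a leucine zipper, was 0.42, 0.60 and 0.25, where that array read 2.73, the other 5 ran from -0.20 to 0.79, and replicate 2 was 0.23 without it.

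NR2F1, an orphan nuclear receptor with a role in the developing ear of the mouse, was 0.69, 0.18 and 0.31 (mean 0.39 ± 0.15), and PGR, the progesterone receptor, was 0.91, 0.19 and 0.25. HSA275986 and FLJ10697, clone names in the files that the study's supplement updates to DCP1A and ZNF532, had means of 0.41 ± 0.15 and 0.45 ± 0.19. On the array that stood apart they read 2.24 and 2.04, and without it replicate 2 went from 0.51 to 0.17 in HSA275986 and from 0.67 to 0.41 in FLJ10697. In PGR, NFATC1 and HOXD4 replicate 2 was 0.079, 0.083 and 0.36 without it. NFATC1, a calcium-responsive factor, rested most on 1 replicate, with 1.72 in replicate 1 against 0.19 and 0.17 in the others. TBX3 likewise gave 0.95 against 0.14 and 0.15, and HOXD4 gave 0.51, 0.13 and 0.37.

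The higher genes were much dimmer than the lower ones. The 12 higher genes were detected in a median of 9.72% of readings and the 12 lower genes in a median of 51.4%. For ELL2, PGR, HOXD4, NFATC1 and TBX3 one of the RNAs was detected on none of the 18 arrays, so the ratio has no measured fold, and a bound set by the lowest detected signal did not exceed 1.

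**Figure D2:**
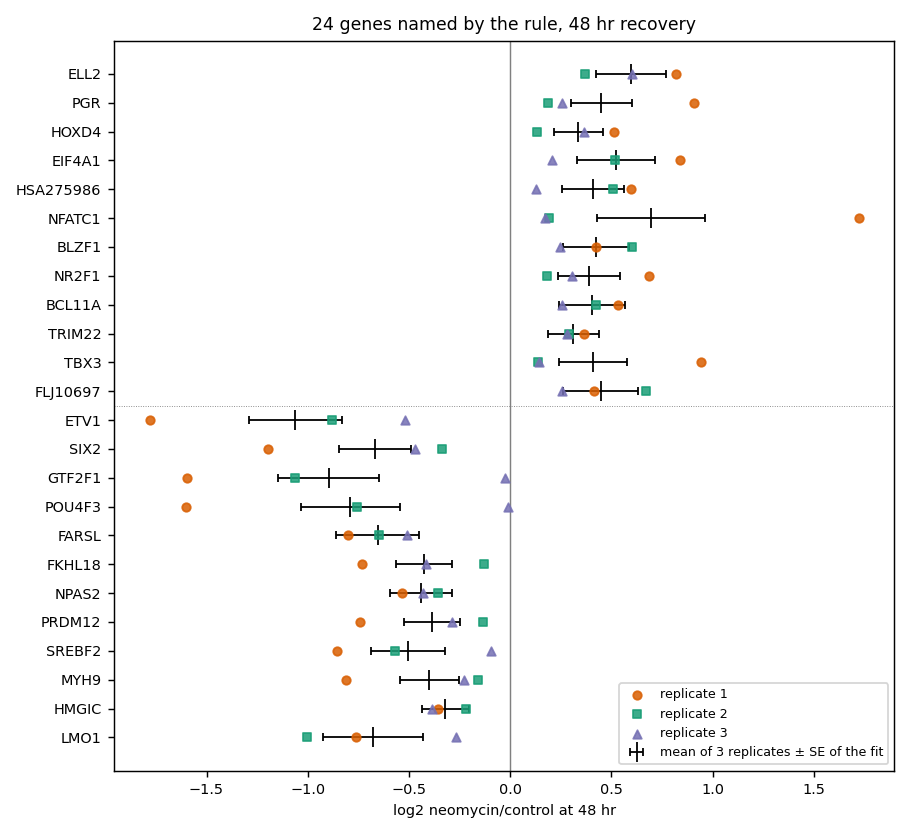
Log2 neomycin/control ratio (horizontal axis) of the 12 higher and 12 lower genes that the naming rule chose, ordered by p. The rule asked for 1 sign in all replicates and in the mean of each dye orientation over replicates. Coloured points are the biological replicates, and the black mark and bar are the mean and SE of the limma fit. Replicate 1 lies farthest from 0 in 20 of the 24 genes, and in 71.5% of all tested probes.

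Brightness also separated the replicates as a whole. All gene probes, tested or not, were divided into 4 equal bins by mean brightness. The median log2 ratio of replicate 1 fell from 0.55 in the dimmest bin to 0.061, -0.12 and -0.29 in the next 3. In replicate 2 the same medians ran between -0.042 and 0.030, and in replicate 3 between -0.011 and 0.031. Dim probes were thus higher and bright probes lower in replicate 1, and the other replicates showed no such slope. The 19 negative controls had medians of 0.37, -0.066 and -0.045 in the 3 replicates. The part of brightness in the values of single genes was not tested.

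Zinc finger genes, the largest of the family lists, include many repressors of the KRAB type whose targets are mostly unknown. Of 112 tested probes with ZNF or ZFP names, 80 had a mean above 0 (71.4%, against 46.7% of all tested probes), and the median was 0.12. Only 2, ZNF41 and ZNF160, had an unadjusted p under 0.05, which is 1.79% of the family, beside 4.52% of all tested probes. The shift was in replicate 1, where the median was 0.34 with 76 of 112 probes above 0, and it was -0.018 in replicate 2 and 0.038 in replicate 3. ZNF41 had values of 0.91, 0.18 and 0.11, and ZNF160 had values of 1.16, 0.22 and -0.011. Without the array that stood apart, replicate 2 was 0.12 in ZNF41 and -0.015 in ZNF160. Of all 172 probes with these names, 65 were detected in no reading. In replicate 1 the zinc finger median exceeded that of the other gene probes in all 4 brightness bins, with 1.09 against 0.48 in the dimmest and 0.033 against -0.31 in the brightest. These bins include probes left out of testing as too dim. Only 24 of the 84 zinc finger probes in the dimmest bin were tested, and the brightest bin held 15.

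**Figure D3:**
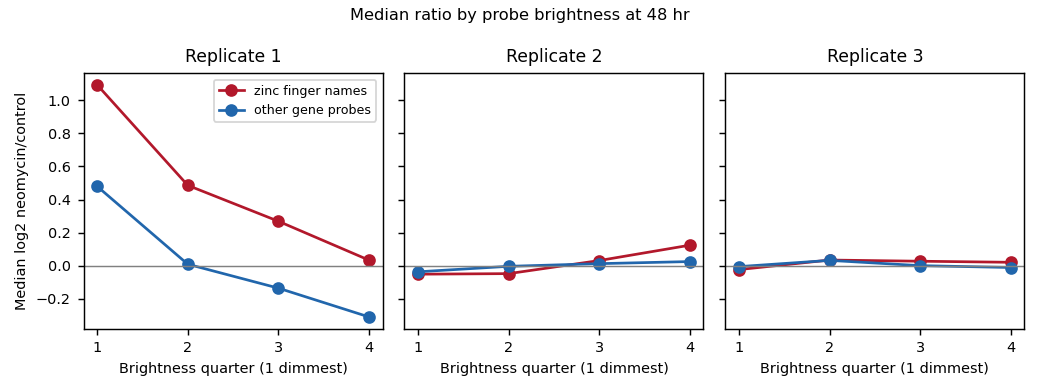
Median log2 neomycin/control ratio (vertical axis) of zinc finger probes and of all other gene probes in 4 bins of mean brightness (horizontal axis, 1 dimmest), 1 panel for each biological replicate. The bins include probes left out of testing as too dim. In replicate 1 both sets fall with brightness and the zinc finger median lies above the other (1.09 against 0.48 in bin 1), while in replicates 2 and 3 all medians lie between -0.052 and 0.12.

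**Figure D4:**
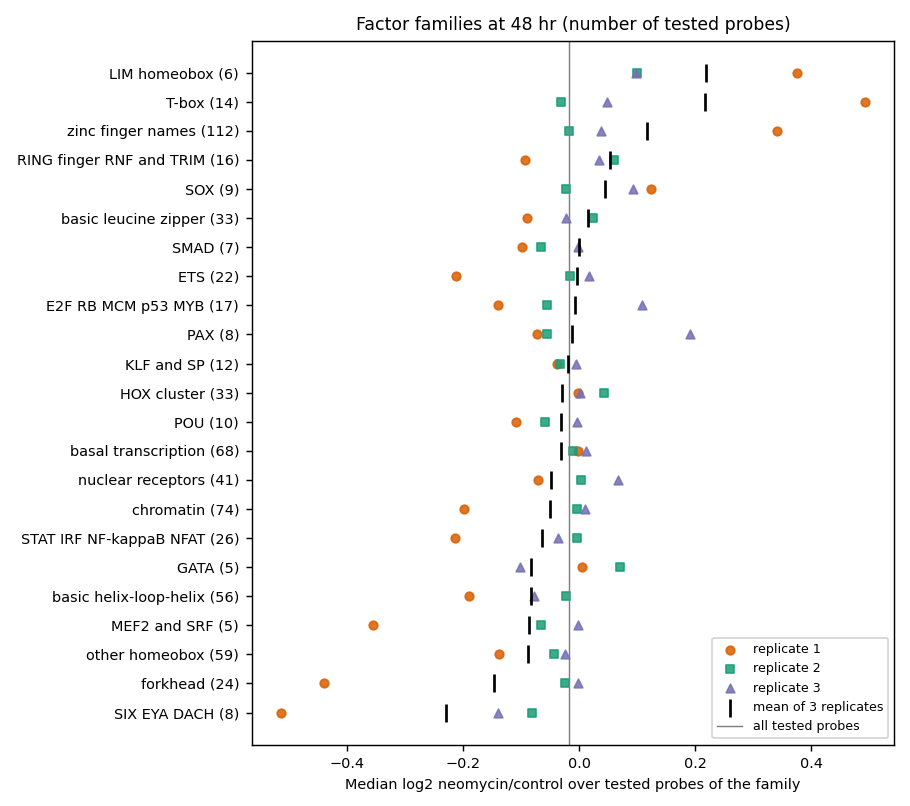
Median log2 neomycin/control ratio over the tested probes of each TF family (rows, number of probes in brackets) in each biological replicate (coloured points) and for the mean of the 3 replicates (black marks). The grey line is the median of all tested probes, -0.017. The SIX2, EYA and DACH group and the forkhead family lie lowest, with replicate 1 at -0.51 and -0.44.

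Other families were compared in the same way, by counts and medians beside those of all tested probes. Forkhead genes had a median of -0.15, with 20 of 24 means below 0, but the medians were -0.44, -0.025 and -0.0014 in replicates 1 to 3. Homeobox genes outside the HOX, LIM, POU, SIX2 and PAX groups had a median of -0.088, and 39 of 59 means were below 0. In this group 3 members had an unadjusted p under 0.05, which is 5.08%, beside 4.52% of all tested probes. SHOX and NKX2C had means of -0.57 ± 0.22 and -0.33 ± 0.14 (limma unadjusted p = 0.0268 and 0.0397), and PBX3, a partner of HOX proteins, had a mean of 0.42 from replicates at 1.02, -0.027 and 0.26 (limma unadjusted p = 0.0444). Replicate 2 of NKX2C was -0.21 with all arrays and 0.027 without the array that stood apart. Basic helix-loop-helix genes had a median of -0.083 and stayed below 0 in each replicate. The medians of the forkhead, these homeobox, helix-loop-helix, SIX2-EYA-DACH and zinc finger lists kept their sign under the 19 other settings that could move them. Without replicate 1 the zinc finger median was 0.020 and the forkhead median -0.035.

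LIM homeobox genes leaned the other way. LHX6 was 0.40, 0.42 and 0.31 and LHX1 was 0.56, 0.14 and 0.13, and 4 of 6 tested probes of the family were higher in every replicate, beside 14.4% of all tested probes, although none had an unadjusted p under 0.05 (smallest adjusted p = 0.784 in limma). The family median was 0.22 and was -0.043 with the dimmest 30% of probes left out. Among 14 tested T-box probes, 4 were higher and 3 lower in every replicate, beside 14.4% and 16.1% of all tested probes, TBX5 averaged 0.32 ± 0.15, and the median of 0.22 went with 0.49, -0.032 and 0.049 in replicates 1 to 3 and was -0.096 with the dimmest 30% left out.

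Genes of the chromatin list counted 6 lower and 1 higher at an unadjusted p under 0.05 among 74 tested, beside 2.65% lower and 1.87% higher of all tested probes. BRPF3, a scaffold of MYST acetyltransferases, averaged -0.40 ± 0.15 and MORF, such an acetyltransferase, averaged -0.42 ± 0.16. Nuclear receptors counted 2 higher and 1 lower of 41, beside the same shares. RORB, an orphan receptor of this class, had a mean of -0.43 ± 0.19 (limma unadjusted p = 0.0507). GATA4 and the SMAD gene MADH6, an inhibitor of BMP signalling, had means of -0.39 ± 0.15 and -0.30 ± 0.14. In replicate 1 GATA4 ran from -2.24 to -1.12 on arrays with neomycin in Cy3. With neomycin in Cy5 it ran from -0.096 to 0.13. Replicate 2 of GATA4 went from -0.30 to -0.082 without the array that stood apart.

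For proliferation, 16 probes of genes of S phase and cell division were tested and none had an unadjusted p under 0.05, with 8 means above 0 and 8 below. Among those below 0, E2F2 had a mean of -0.32 ± 0.19 and MYBL2, a driver of mitotic genes, one of -0.30 ± 0.20. The highest mean of this list was 0.18. In the separate list of E2F, RB, MCM, p53 and MYB genes, 1 of 17 tested probes was higher and 0 lower at an unadjusted p under 0.05. The shares of all tested probes were 1.87% and 2.65%. The higher member was E2F5, with a mean of 0.47 from values of 0.48, -0.19 and 1.13 (limma unadjusted p = 0.0490). JUN, a subunit of AP-1, was 0.58, -0.021 and 0.61 (mean 0.39 ± 0.21, limma unadjusted p = 0.0908), and JUNB was -0.96, 0.053 and 0.0058. Of 9 tested AP-1 probes none had 1 sign in all replicates, beside 30.5% of all tested probes.

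Among genes read as parts of the Notch pathway, 1 of 8 was lower at an unadjusted p under 0.05, beside 2.65% of all tested probes. The lower member was RBPSUHL, a relative of the Notch effector RBPJ, at -1.26, -0.56 and -0.0046. FHL1, which binds RBPJ, had a mean of -0.44 ± 0.22. In the Wnt list none of 8 had an unadjusted p under 0.05. The median was -0.12, with 2 means above 0 and 6 below. CTNNB1, which encodes beta-catenin, had the highest mean of that list and was detected in 86.1% of readings. It was 0.52, 0.16 and 0.15 (mean 0.28 ± 0.29) but was below 0 in the deposited ratios. TRIP15 and CUTL1, which have been tied to the cell cycle inhibitor p27, had means of -0.16 ± 0.17 and 0.075 ± 0.33, and each changed sign under other settings.

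A short list was taken from the genes that the study's text describes for the cochlea at 48 hr. It is not the study's full list of changed genes, and it was selected by its authors from data that include these arrays, so its counts are not independent evidence. Of 15 tested members, 1 was higher (BCL11A) and 1 lower (GTF2F1) at an unadjusted p under 0.05, beside 1.87% and 2.65% of all tested probes. IRF2 was -1.72, 0.31 and -0.041, NFE2L1 was -1.30, 0.10 and -0.42, and TAF2H was -1.43, 0.081 and -0.11, so that in each of these replicate 1 carried the mean. ZNF90 had values of 0.73, 0.49 and 0.042 and TBX15 had values of 0.55, 0.30 and 0.16, which were positive throughout. Without the array that stood apart, replicate 2 was 0.18 in ZNF90 and 0.053 in TBX15. RNF4, a SUMO-targeted ubiquitin ligase, is not a member of this short list. It was -0.62, -0.30 and -0.60 at 48 hr (mean -0.51 ± 0.22, limma unadjusted p = 0.0399), with means of -0.41 at 0 hr and -0.64 at 24 hr. Replicate 2 of RNF4 was -0.094 without the array that stood apart. Its dye orientations opposed each other, with -2.15 for neomycin in Cy3 and 0.90 for neomycin in Cy5 in replicate 1, and 0.33 and -1.54 in replicate 3.

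The 48 hr ratios were also set against those at 0 hr and 24 hr of recovery, each from 3 biological replicates in the same limma fit. No probe differed at an adjusted p of 0.05 between 48 and 0 hr (smallest adjusted p = 0.998) or between 48 and 24 hr (smallest adjusted p = 0.848). At an unadjusted p under 0.05 there were 19 probes (1.48%) for 48 minus 0 hr and 51 (3.98%) for 48 minus 24 hr.

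ETV1 had a mean of -0.32 at 0 hr and 0.017 at 24 hr, and the difference of 48 minus 24 hr was -1.08 ± 0.32 (limma unadjusted p = 0.00717). POU4F3 averaged 0.15 at 0 hr and 0.030 at 24 hr, and the differences were -0.94 ± 0.35 for 48 minus 0 hr and -0.82 ± 0.35 for 48 minus 24 hr (limma unadjusted p = 0.0213 and 0.0391). PRDM12 was above 0 in every replicate at both earlier times and below 0 in every replicate at 48 hr, with differences of -0.59 ± 0.20 and -0.56 ± 0.20 (limma unadjusted p = 0.0129 and 0.0162). CORO1A went from 0.45 at 0 hr to -0.39 at 48 hr, a difference of -0.84 ± 0.24 (limma unadjusted p = 0.0052).

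Other genes of the 48 hr set had earlier means that often rested on 1 replicate. LMO1 was -0.19, -1.04 and 0.0073 at 0 hr and 0.010, -0.14 and -1.03 at 24 hr. FARSL was 0.0020, -1.15 and -0.22 at 0 hr, and BCL11A was 0.64, -0.087 and 0.050 at 0 hr. GTF2F1 was below 0 in all 3 replicates at 0 hr, at -0.18, -0.76 and -0.85. Of the 12 lower genes, 4 had an unadjusted p under 0.05 for 48 minus 0 hr and 7 for 48 minus 24 hr, and of the 12 higher genes 1 and 1, but these genes were chosen for their 48 hr values, which both differences contain.

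**Figure D5:**
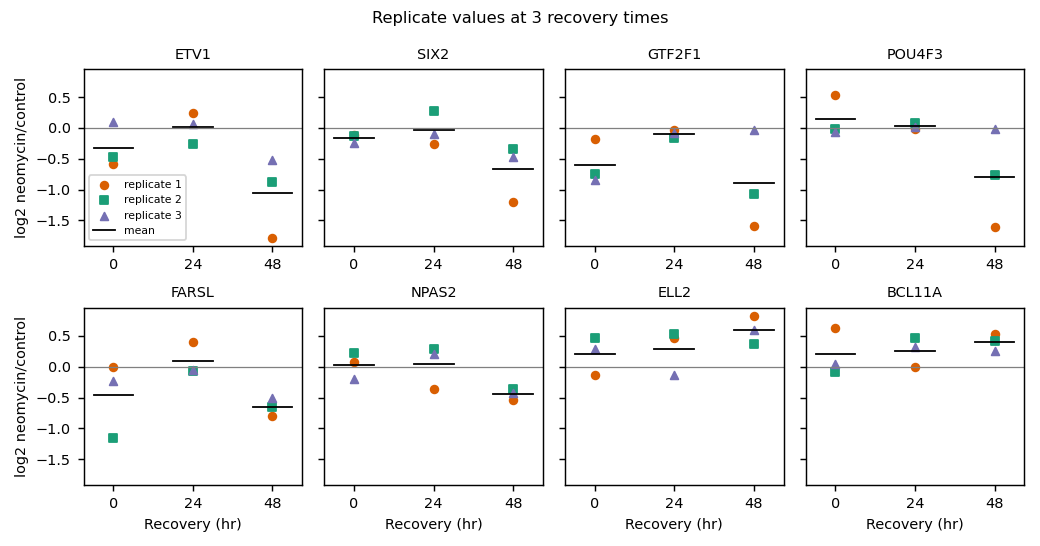
Log2 neomycin/control ratio of 8 genes in each biological replicate (points) and their mean (bars) at 0, 24 and 48 hr of recovery. ETV1, SIX2 and POU4F3 spread below 0 at 48 hr and lie nearer 0 at 24 hr, whereas ELL2 and BCL11A have means above 0 at all 3 times.

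The count of calls depended on what was taken as a replicate. With single arrays as the unit and the biological replicate as a random block, which treats arrays of 1 RNA pair as partly independent (consensus correlation 0.20), limma called 4 probes, all lower, namely ETV1 and SIX2 (adjusted p = 0.0097) and GTF2F1 and POU4F3 (adjusted p = 0.0353). With 1 value per biological replicate none was called, and the smallest adjusted p was 0.999 without replicate 1, 0.524 without replicate 2 and 0.147 without replicate 3.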

How the data were processed

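The authors scanned the arrays and deposited the intensity of every spot in both dyes, as the ImaGene software wrote it, with no normalization. The deposited log2 ratios equalled neomycin over control of the raw signal means on all 51 arrays (within 1e-05) and served as an alternative. Headers of all 18 arrays at 48 hr named the dye of the neomycin RNA given by the title suffix, which set the direction.

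Spots were corrected with normexp (offset 50) and loess within each array in limma 3.58.1 (R 4.3.3), with control spots left out of the loess. Duplicate spots, then arrays of 1 dye orientation, then both orientations were averaged to 1 value per biological replicate. The dimmest 15% of gene probes were left out. limma was fitted over all 9 replicates, and p-values were adjusted over all 1282 tested probes by Benjamini-Hochberg. Steps were tested on simulated data. An intensity not above 95% of the negative controls counted as not detected. The number of arrays limits the precision. The labels call the replicates biological. The methods' main test, a one-sample t-test over hybridizations, was run as an alternative.

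Genes were named by rule at 48 hr. Eligible were tested probes of 1 sign in all replicates and in both orientation means over replicates. Of these, the 12 higher and 12 lower with the smallest p were taken. Cell type markers and genes the study's text names for 48 hr were added. So were up to 4 members of each other list with the smallest p. Members and lists were chosen with earlier results of these data known. Replicate numbers are shared across time points, but deviations of same-numbered replicates correlated between -0.16 and 0.065, so they were not treated as pairs. Probe sequences were not used here. Some members of the lists are not reported here by name.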

Additional observations from a re-analysis of the deposited data

Results flagged for a closer look

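Array 1 of replicate 2 with the neomycin RNA in Cy5 had an SD of log2 ratios of 0.775, while the remaining 5 arrays of replicate 2 ranged from 0.31 to 0.39. Its share of spots not exceeding local background was 23.6%, against 1.01% to 5.11% elsewhere in replicate 2. Array 3 of replicate 1 with the neomycin RNA in Cy3 correlated with its 7 companions at 0.25 on average, against 0.40 to 0.52 for those arrays. Each is listed because its gap to the nearest array exceeded Dixon's 95% critical value, among 9 such tests, of which chance flags about 5%. Without the first array 53 probes had an unadjusted limma p under 0.05, and without the second 61, against 58 with all arrays, with 0 calls after adjustment in each case. ETV1, GTF2F1 and POU4F3 had values on the second array of 0.10, -0.031 and -0.35, nearer 0 than on the other arrays of replicate 1.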

How the results depend on the processing

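In all, 24 other settings were tried. The limma count of calls stayed at 0 except with single arrays as the unit, where it was 4 (biological replicate as random block), 2 (GTF2F1 and LMO1, array weights added) and 41 (quantification date as random block), and in the methods' t-test over single arrays, where it was 41 after Benjamini-Hochberg. On replicate values that t-test called 0. These single-array fits take arrays of 1 RNA pair as wholly or partly independent. The count at unadjusted p was 89 with no background correction, 37 with scaling between arrays, 151 with the deposited ratios, 28 with only the 3 replicates at 48 hr, 139, 266 and 405 in the single-array fits with the replicate block, the date block and the t-test, and 7 to 109 on leaving out a replicate in turn, lowest without replicate 1. The 48 hr probes of 1 sign in 3 replicates numbered 607 to 761 on leaving out a replicate, since only the other two then need the same sign. For 48 minus 0 hr there were 8 calls with array weights and 1 with the date block, and for 48 minus 24 hr 5 and 14. The cause was not tested. Dye bias gave 0 calls wherever it was recomputed, which was not done for single arrays, single orientations or equal weights.

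With the replicate number as a replicate block, the calls stayed at 0, the count at unadjusted p was 56, and the contrasts and the dye effect gave 0 calls. It changed no other call.

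Of 76 genes set against the alternatives, 66 kept their direction in all of them. The 24 genes chosen by sign and smallest p had 1 sign in all replicates and in both orientation means over replicates. Their direction with 1 orientation only, or without 1 replicate, was thus fixed in advance, so the count of 66 does not measure stability. The value of ATOH1 log2 neomycin/control at 48 hr turned to -0.023 with no background correction, -0.026 with loess within each metagrid, -0.11 with scaling, -0.000109 with signal medians, -0.041 in the deposited ratios, -0.16 with array weights, -0.17 with neomycin in Cy5 only and -0.033 without replicate 1 suffix 3 array 3. GFI1 was 0.045 and CUTL1 -0.12 with median centring. In the deposited ratios BARHL1 was 0.021, CTNNB1 -0.045 and CUTL1 -0.22, and CUTL1 was -0.33 with neomycin in Cy5 only. With neomycin in Cy3 only SOX2 was -0.063 and GATA3 0.15, and GATA3 was 0.0027 with the date block. TRIP15 was 0.0066 with loess within each metagrid, 0.027 with scaling and 0.17 with array weights. On leaving out each replicate in turn the ranges were ATOH1 -0.15 to 0.085, GATA3 -0.18 to 0.061, IRF2 -0.88 to 0.13, JUNB -0.48 to 0.029, SOX2 -0.016 to 0.18 and TRIP15 -0.34 to 0.013.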
